A study of Mus musculus with 6 samples.

Results

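The genes described here are 8 oncofetal genes, that is, genes active in fetal tissue, mostly silent in adult liver and known for their return in liver tumours. They are the RNA-binding protein genes Igf2bp1, Igf2bp2, Igf2bp3 and Lin28b, the chromatin protein genes Hmga1 and Hmga2, and the tumour marker genes Gpc3 and Golm1. They were taken by gene name from a table of 25416 genes, in which 7 of the 8 names were found; Gpc3, a glypican of the fetal liver surface and a marker of hepatocellular carcinoma, was not analysed here. The genes were chosen by name with their siSetdb1 and siNC values and the differences between these groups already known. Fold changes and calls of these genes therefore describe them, without a p-value, and support nothing further.

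RNA came from AML12, a line of hepatocytes from a mouse that carried a transgene for human TGF alpha, a growth factor that acts through the EGF receptor. One group of cultures received an siRNA against Setdb1 (siSetdb1, 3 libraries), and the other a scrambled RNA (siNC, 3 libraries). Both were grown in the same insulin-containing medium, were transfected at a stated siRNA amount of 50 (written with the unit nm) and were harvested after 72 h. SETDB1 is a methyltransferase that places repressive methyl groups on lysine 9 of histone H3. The design sets knockdown against control to see how gene expression depends on it. All cells are of 1 line. The labels do not say whether replicate libraries were separate cultures, so p-values measure a spread that may be technical.

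The libraries held 16790582 to 17835060 reads, and 19731 to 20544 genes were above 0 in each. Setdb1 had 4.29, 4.21 and 3.29 FPKM (reads scaled to exon length and to the total of the library) in siSetdb1 and 8.41, 8.54 and 9.43 FPKM in siNC, so the target was lower in each knockdown library. On the leading principal components siNC replicate 1 stood apart from the other siNC libraries, at 26.7 against 11.7 and 10.8 on the first and at -15 against 10.7 and 14 on the second. Of 10 hepatocyte markers, 8 reached 1 FPKM in at least 1 library. Their summed level was 3364 to 3482 FPKM in siSetdb1 and 2834 to 3237 FPKM in siNC, most of it from the keratin genes Krt8 and Krt18. The list median was -0.72, and the carrier protein genes Ttr and Trf fell (limma adjusted p = 0.0247 and 0.00816). Krt18 rose (log2 fold change 0.30, limma adjusted p = 0.0364). It did not pass with no filter, with the replicate number as a block, or without any 1 library except siNC replicate 1 (limma adjusted p = 0.0708 to 0.139). Of the tested markers that did not pass, Krt8 and Apob had positive fold changes (0.10 and 0.44). Alb, Apoa1 and Hnf4a had negative ones (-1.23, -1.45 and -0.21). Ttr had 7.02 FPKM on average in siSetdb1 and 27.5 FPKM in siNC, and Trf had 8.67 FPKM in siSetdb1 and 23.8 FPKM in siNC. Ttr did not pass with no filter, or without replicate 1 or 3 of siNC or replicate 1 or 2 of siSetdb1 (limma adjusted p = 0.0605 to 0.0907). Besides the main fit it kept its call in 6 settings, among them the one with the replicate number as a block (limma adjusted p = 0.0101). Albumin (Alb) was low, at 1.45 to 4.50 FPKM in siSetdb1 and 4.05 to 14.3 FPKM in siNC. Of 6 bile duct markers, 4 reached 1 FPKM, with Krt19 at 1264 to 1431 FPKM in siSetdb1 and 1204 to 1444 FPKM in siNC. Krt7 and Sox9 rose and Spp1 fell (limma adjusted p = 0.00827, 0.0068 and 0.00689), with Krt7 at 218 FPKM in siSetdb1 and 154 FPKM in siNC and Sox9 at 9.26 FPKM in siSetdb1 and 4.95 FPKM in siNC. The part of these marker differences in the results below was not tested. Markers of stellate cells summed to at most 1.22 FPKM and those of endothelial cells to at most 0.193 FPKM in siSetdb1, and to at most 0.649 and 0.122 FPKM in siNC. Macrophage and leukocyte markers summed to 2.39 to 3.17 FPKM in siSetdb1 and 4.75 to 6.64 FPKM in siNC, nearly all from Cd68.

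Many of these genes belong to 1 regulatory circuit. The let-7 microRNAs accumulate as tissues mature and bind the 3′ untranslated regions (3′ UTRs) of fetal mRNAs, which are then degraded or left untranslated. LIN28B binds let-7 precursors and blocks their processing, and its own mRNA is a let-7 target. The IGF2BP proteins bind mRNAs such as those of IGF2 and MYC, in part at N6-methyladenosine, and protect them from decay, while the HMGA proteins bend AT-rich DNA and open chromatin. GOLM1 is a Golgi membrane protein that is cleaved and secreted, and its serum level is used as a marker of liver disease.

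Matches to the let-7 seed were found in the mRNAs of 6 of the 8 genes, and not in those of Golm1 and Gpc3. The let-7 family shares bases 2 to 8, shown in capitals for 5 of the 9 mature names taken from RefSeq (GRCm38.p6), 5′ to 3′. All 9 names had the same seed.
mmu-let-7a-5p: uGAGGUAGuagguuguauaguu
mmu-let-7b-5p: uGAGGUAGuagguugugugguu
mmu-let-7g-5p: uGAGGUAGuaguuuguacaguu
mmu-let-7i-5p: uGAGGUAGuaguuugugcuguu
mmu-miR-98-5p: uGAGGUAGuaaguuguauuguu

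A match to this seed is CTACCTC, and an 8-base match, CTACCTCA, adds the A that faces the first base of the microRNA. Both were searched on the mRNA strand in the longest annotated 3′ UTR of each gene (GENCODE M21, GRCm38), where each 8-base match also counts as a 7-base match. The 3′ UTRs of 6 of the 8 genes held at least 1 match and 5 held an 8-base match. Over all 21027 genes with a 3′ UTR, 9.0% held a 7-base match and 3.1% an 8-base match. The windows below are 30 bases long and end at the match, which is in capitals. They show 1 match of each gene that has one, the 8-base match nearest to the stop codon or, for Hmga1, its 7-base match.
Igf2bp1 (chr11:95961778-95961807, minus strand): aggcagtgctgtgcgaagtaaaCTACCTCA
Igf2bp2 (chr16:22059473-22059502, minus strand): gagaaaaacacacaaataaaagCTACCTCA
Igf2bp3 (chr6:49086787-49086816, minus strand): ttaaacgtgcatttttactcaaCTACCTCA
Lin28b (chr10:45381022-45381051, minus strand): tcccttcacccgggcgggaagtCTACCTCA
Hmga2 (chr10:120364224-120364253, minus strand): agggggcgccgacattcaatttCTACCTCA
Hmga1 (chr17:27563269-27563298, plus strand): ccatcttctcctctgttcacaaaCTACCTC

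Igf2bp1, Lin28b and Hmga2 had 4 matches each, and Igf2bp2, Igf2bp3 and Hmga1 had 1 each. Per kilobase of 3′ UTR this came to 1.327 matches in Hmga2, 0.9 in Lin28b, 0.845 in Hmga1, 0.631 in Igf2bp1, 0.561 in Igf2bp2 and 0.472 in Igf2bp3, against 0.07 over all 3′ UTRs. The letters were not found in the 3′ UTRs of Golm1 (2666 bases) and Gpc3 (441 bases). A match describes the sequence only, and mature let-7 was not measured in these polyadenylated RNA libraries.

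The 7 measured genes covered a wide range of levels. In siSetdb1 the order by mean FPKM was Hmga1 (136), Hmga2 (41.3), Golm1 (38.1), Igf2bp1 (8.80), Igf2bp2 (8.15), Igf2bp3 (0.958) and Lin28b (0.157). FPKM is scaled to the summed length of all annotated exons of a gene, which can exceed the length of the mRNA present. Which transcripts were present was not tested, so orders between genes are approximate. In siNC it was Hmga1 (119), Hmga2 (36.3), Golm1 (28.3), Igf2bp2 (14.4), Igf2bp1 (8.62), Igf2bp3 (0.876) and Lin28b (0.243). Neighbours in each order were separated in all libraries except Igf2bp1 and Igf2bp2 in siSetdb1, whose ranges overlapped. Hmga1 exceeded 98.7% of the genes in the table in siSetdb1 and 98.5% in siNC, whereas Lin28b exceeded 39.9% and 44.0%.

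**Figure D1:**
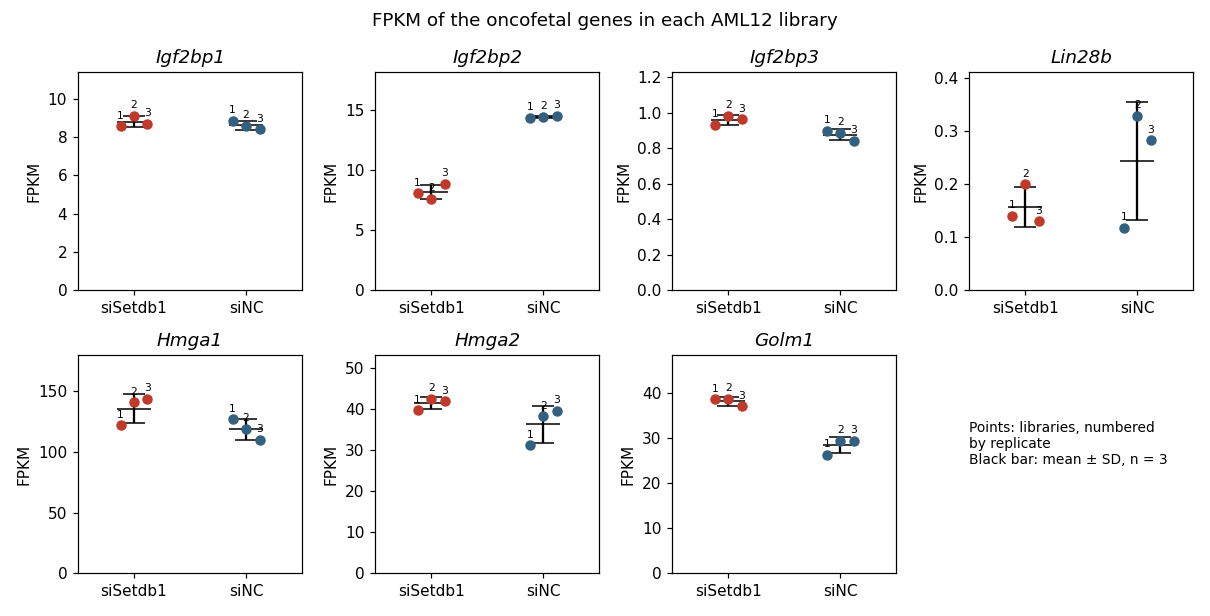
FPKM (y axis, from 0, with its own scale in each panel) of the 7 measured genes in the 3 siSetdb1 and 3 siNC libraries. Points are libraries numbered by replicate and black bars are the mean ± SD (n = 3). Igf2bp2 lies between 7.60 and 8.81 FPKM in siSetdb1, below 14.3 to 14.5 FPKM in siNC, and Golm1 lies above its siNC values in each siSetdb1 library.

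In the fit over all genes, 2 of the 6 genes that passed the filter on low values changed: Igf2bp2 fell and Golm1 rose. Igf2bp1, Igf2bp3, Hmga1 and Hmga2 did not pass the threshold. Of all 12846 genes tested, 15.1% passed, and nothing is read from the share of these genes, since they were chosen with this comparison known. The median log2 fold change was 0.13 over the 6 genes and -0.018 over all genes tested. In bulk RNA a change in the level per cell and a change in the number of cells that express a gene cannot be told apart.

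Igf2bp2, whose protein binds and stabilises metabolic and growth mRNAs and is the family member that persists in many adult tissues, was the one that fell. Igf2bp2 (ENSMUSG00000033581, chromosome 16, 22059009 to 22163299, minus strand, mm10) had 8.05, 7.60 and 8.81 FPKM in siSetdb1 and 14.3, 14.4 and 14.5 FPKM in siNC. Each knockdown library was well below each control library, and the siNC libraries lay close together. The mean was 8.15 ± 0.61 FPKM in siSetdb1 and 14.4 ± 0.0866 FPKM in siNC (SD, n = 3 each), 43.3% lower, with 961 to 1854 reads behind each value. On the log2(FPKM + 1) scale, which understates changes of low genes, its log2 fold change was -0.75 (SE 0.07). Of all genes tested, 131 (1.02%) had a fold change at least as low. No other annotated exon overlaps those of Igf2bp2.

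Igf2bp1, a family member found in embryos and in many tumours (ENSMUSG00000013415, chromosome 11, 95957163 to 96005940, minus strand), had 8.56, 9.13 and 8.71 FPKM in siSetdb1 and 8.85, 8.60 and 8.41 FPKM in siNC, so the groups overlapped. Its log2 fold change was 0.03, with a 95% interval of -0.12 to 0.18. It was 0.00 to 0.05 over 12 settings of the analysis. Igf2bp3, likewise an oncofetal member (ENSMUSG00000029814, chromosome 6, 49085223 to 49214957, minus strand), had 0.929, 0.983 and 0.962 FPKM in siSetdb1 and 0.898, 0.887 and 0.842 FPKM in siNC, from 118 to 140 reads. Its siSetdb1 values were all slightly higher, and 4 of the 6 tested members had groups that did not overlap, against 39.2% of all genes tested. The log2 fold change of Igf2bp3 was 0.06 (95% interval -0.13 to 0.26). Its exons share 1529 of 8159 bases with Malsu1 on the opposite strand. Malsu1, a mitochondrial ribosome factor gene, had 5.58, 5.40 and 5.97 FPKM in siSetdb1 and 6.37, 6.06 and 6.15 FPKM in siNC, and as no strand-marking step is described for these libraries, its reads may be counted for Igf2bp3.

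The makeup of the family by FPKM differed between the groups. With log2 fold changes of 0.03 for Igf2bp1 and 0.06 for Igf2bp3, this largely restates the lower Igf2bp2 level and is no further result. The 3 mRNAs summed to 17.5, 17.7 and 18.5 FPKM in siSetdb1 and to 24.0, 23.9 and 23.7 FPKM in siNC. Igf2bp2 made up 45.5% ± 2.4 of that sum in siSetdb1 and 60.2% ± 0.78 in siNC (SD, n = 3 each). The share of Igf2bp1 was 49.2% ± 2.2 in siSetdb1 and 36.1% ± 0.69 in siNC, and that of Igf2bp3 was 5.35% ± 0.18 and 3.67% ± 0.10. Igf2bp1 stood at 1.06, 1.2 and 0.989 times the level of Igf2bp2 in the siSetdb1 libraries and at 0.619, 0.598 and 0.581 times in the siNC libraries. By FPKM, Igf2bp2 led the family in siSetdb1 replicate 3 and in all siNC libraries, and Igf2bp1 led in siSetdb1 replicates 1 and 2. The summed exon lengths were 9682 bases for Igf2bp1, 7402 for Igf2bp2 and 8159 for Igf2bp3. Their longest annotated 3′ UTRs had 6337, 1784 and 2119 bases. Shares and leads within the family depend on the lengths used, and which transcripts were present was not tested. Reads of Malsu1 may also add to the share of Igf2bp3.

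**Figure D2:**
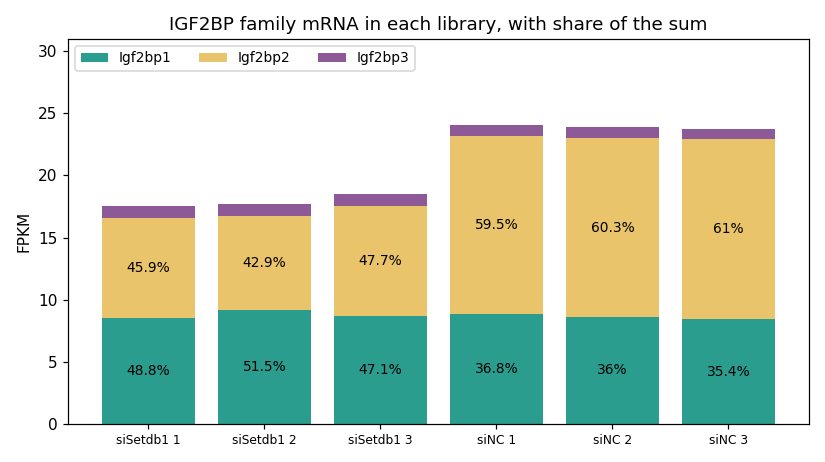
Stacked bars give the FPKM (y axis) of Igf2bp1, Igf2bp2 and Igf2bp3 in each library (x axis), with the share of the sum printed for Igf2bp1 and Igf2bp2. The Igf2bp1 segment keeps nearly the same height in all 6 libraries, from 8.41 to 9.13 FPKM, while the Igf2bp2 segment is shorter in siSetdb1.

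Lin28b, the block on let-7 processing, was near the lower limit of measurement. Lin28b (ENSMUSG00000063804, chromosome 10, 45376620 to 45486395, minus strand) had 0.14, 0.20 and 0.13 FPKM in siSetdb1 and 0.118, 0.330 and 0.283 FPKM in siNC. Only 22, 31 and 21 reads in siSetdb1 and 18, 52 and 44 reads in siNC stood behind these values. The siNC libraries spanned the siSetdb1 range, with replicate 1 as the lowest of all 6. The gene did not pass the filter of 0.5 FPKM in 3 libraries and was not tested. With no filter its log2 fold change was -0.10, and it did not pass.

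The HMGA genes had the highest FPKM of the set. Hmga1 (ENSMUSG00000046711, chromosome 17, 27556497 to 27563674, plus strand) had 122, 141 and 144 FPKM in siSetdb1 and 127, 119 and 110 FPKM in siNC, from 4019 to 5464 reads. The siNC replicate 1 value lay inside the siSetdb1 range, and the log2 fold change was 0.19 (95% interval -0.01 to 0.40). Its near-identical copy Hmga1b on chromosome 11 had 17.3, 19 and 20 FPKM in siSetdb1 and 17.7, 16.1 and 15.6 FPKM in siNC. Hmga1 stood at 7.09, 7.45 and 7.21 times Hmga1b in siSetdb1 and at 7.17, 7.39 and 7.07 times in siNC. Short reads can fit both copies, so the split between them is uncertain.

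Hmga2, the embryonic HMGA gene (ENSMUSG00000056758, chromosome 10, 120361275 to 120476469, minus strand), had 39.7, 42.5 and 41.9 FPKM in siSetdb1 and 31.2, 38.2 and 39.6 FPKM in siNC. All siSetdb1 values were above all siNC values, by a margin of less than 1% between the closest libraries, and siNC replicate 1 was the lowest. The log2 fold change was 0.19 (95% interval -0.04 to 0.41), and 0.09 without siNC replicate 1. Hmga2 made up 23.4% ± 1.0 of the summed HMGA level in siSetdb1 and 23.5% ± 3.5 in siNC (SD, n = 3 each). Both genes had positive fold changes in all 12 settings and passed in none.

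Golm1, the Golgi membrane protein gene, was the one that rose. Golm1 (ENSMUSG00000021556, chromosome 13, 59634626 to 59675811, minus strand) had 38.6, 38.7 and 37.0 FPKM in siSetdb1 and 26.3, 29.4 and 29.4 FPKM in siNC. The groups were well apart, with siNC replicate 1 again the lowest. The mean was 38.1 ± 0.965 FPKM in siSetdb1 and 28.3 ± 1.79 FPKM in siNC (SD, n = 3 each), 34.5% higher, with 1951 to 2951 reads behind each value. Its log2 fold change was 0.42 (SE 0.07), and 774 genes (6.03% of those tested) had a fold change at least as high. Without siSetdb1 replicate 1, and without siSetdb1 replicate 2, it was 0.41 and no longer passed; without siNC replicate 1 it was 0.36 and passed. The exons of Golm1 share 1297 of 4424 bases with those of Naa35, an acetyltransferase subunit gene on the opposite strand. Naa35 had 7.03, 7.41 and 6.88 FPKM in siSetdb1 and 6.78, 7.04 and 6.52 FPKM in siNC, with overlapping groups, and its part in the Golm1 values was not tested.

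**Figure D3:**
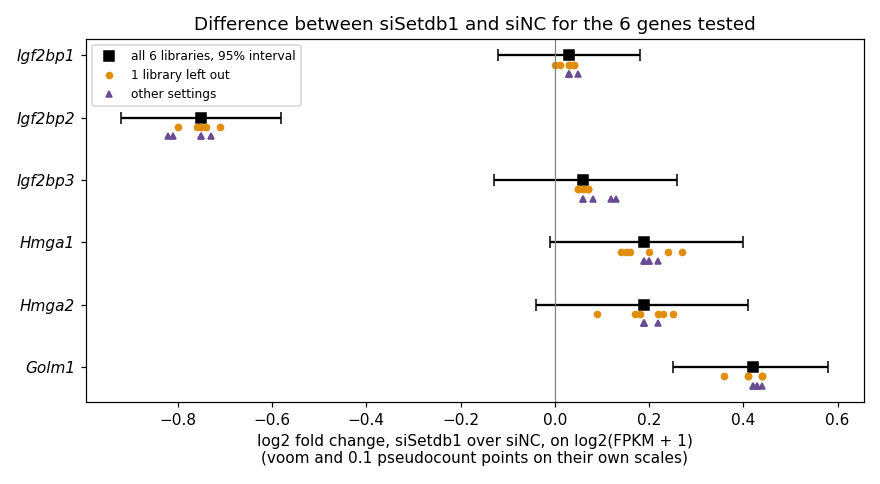
Log2 fold change, siSetdb1 over siNC (x axis, log scale), of the 6 genes tested. Squares with bars are the estimate from all 6 libraries with its 95% interval, circles leave out 1 library and triangles are the other settings. The points of Igf2bp2 all lie between -0.82 and -0.71 and those of Golm1 between 0.36 and 0.44.

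The genes whose values ran most like these were found by the root mean square difference over the 6 libraries, after log2(FPKM + 1) of each gene was centred on its mean. Nearest to Igf2bp2 were Gls2, a liver-type glutaminase gene, at a difference of 0.0411, and the transcript 9030622O22Rik at 0.0548. Gls2 had 5.80, 5.45 and 6.07 FPKM in siSetdb1 and 9.77, 9.73 and 10.1 FPKM in siNC. Nearest to Golm1 were Ccny, a cyclin gene, at 0.0190, and Spred1, an inhibitor of RAS signalling, at 0.0234. Spred1 had 11.8, 11.8 and 11.7 FPKM in siSetdb1 and 8.10, 9.23 and 9.08 FPKM in siNC.

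The LIN28 and let-7 pathway outside the set showed 1 gene that changed. Of 13 tested genes, among them Drosha and Dicer1 of microRNA processing and the Argonaute genes Ago1 and Ago2, 1 fell, none rose and 12 did not pass. Khsrp, whose protein promotes let-7 maturation, had 33.2, 35.8 and 35.5 FPKM in siSetdb1 and 55.0, 48.9 and 49.1 FPKM in siNC (log2 fold change -0.54, limma adjusted p = 0.00494). The groups did not overlap. The list median was -0.03, beside -0.018 for all genes tested. For this list and those below, the shares over all tested genes are 6.87% that rose and 8.27% that fell. Without siNC replicate 1, 2 genes fell, as with limma-voom. Lin28a was not analysed here.

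Known targets of let-7 moved in both directions. Of 24 tested, 5 rose, 3 fell and 16 did not pass, with a list median of 0.09, beside 6.87% of all tested genes that rose and 8.27% that fell. Arid3a, a transcription factor gene, had 5.20, 6.66 and 5.96 FPKM in siSetdb1 and 3.03, 2.94 and 3.35 FPKM in siNC (log2 fold change 0.75, limma adjusted p = 0.00395). Thbs1, a matrix glycoprotein gene, rose by 0.71 (adjusted p = 0.0113). Of the 28 listed genes, 19 held a seed match in the 3′ UTR used here, Arid3a among them and Thbs1 and Myc not. The number that rose was 2 with no filter or without siSetdb1 replicate 2, and 3 with the replicate number as a block or without siNC replicate 3 or siSetdb1 replicate 1 or 3. The number that fell was 1 with no filter or without siSetdb1 replicate 1 or 2.

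Across the genome, 384 tested genes had an 8-base let-7 match and 9429 had no match of either length. Of those with the 8-base match 9.38% rose and 6.77% fell, with a median log2 fold change of 0.022. Of those with none 7.22% rose and 9.07% fell, with a median of -0.023. These are descriptions, and the difference was not tested.

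Among mRNAs known to be bound by IGF2BP proteins, 3 of 10 tested rose, none fell and 7 did not pass. Over all tested genes 6.87% rose and 8.27% fell. The list median was 0.15, beside -0.018 for all genes tested. Myc is also counted among the let-7 targets that rose. Myc, the growth transcription factor gene, had 68.6, 75.1 and 84.7 FPKM in siSetdb1 and 57.1, 48.6 and 53.3 FPKM in siNC (log2 fold change 0.51, limma adjusted p = 0.0153). Cd44, a hyaluronan receptor gene, had 33, 37.1 and 35.6 FPKM in siSetdb1 and 25.1, 24.7 and 27.9 FPKM in siNC (log2 fold change 0.43, limma adjusted p = 0.0124). Actb, the beta-actin gene, rose by 0.43 (adjusted p = 0.0416). Without siSetdb1 replicate 2 none of the 3 passed (adjusted p = 0.0588 for Myc, 0.0583 for Cd44 and 0.138 for Actb in limma), and Actb also did not pass without siNC replicate 2 or 3 or siSetdb1 replicate 1 or 3. With the replicate number as a block Actb did not pass either (limma adjusted p = 0.0928). With no filter 1 of these genes rose, and with limma-voom 1 fell. Igf2, after which the family is named, and its imprinted neighbour H19 were not analysed here.

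The writers, erasers and readers of N6-methyladenosine, the mark that IGF2BP proteins can read, gave no call. None of 18 tested genes passed in limma, nor with limma-voom, and 3 of them had an unadjusted limma p under 0.05. At least 15.1% of all genes tested had one as low, as that share passed after adjustment. Of the lists with calls, it held for 3 of 13 LIN28 pathway genes, 11 of 24 let-7 targets and 5 of 10 IGF2BP-bound mRNAs. It held for 8 of 13 heparan sulfate, 6 of 12 Golgi and 1 of 8 other fetal liver genes. Nothing is read from these counts or those below. The list median was 0.06.

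The other high-mobility-group genes also gave no call among 12 tested in the limma fit, with a median of -0.09 and 4 at an unadjusted p under 0.05. Hmgn1, Hmgb3 and Hmgb2, genes of nucleosome-binding and DNA-bending proteins, were nearest to the threshold. Hmgn1 had 74.4, 80.7 and 77.3 FPKM in siSetdb1 and 93.3, 93.7 and 87.4 FPKM in siNC (limma adjusted p = 0.0509). On recovered reads with limma-voom 2 genes of this list fell, and 1 fell with the replicate number as a block.

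Among heparan sulfate proteoglycans and their enzymes, the family of Gpc3, 2 of 13 tested genes rose, none fell and 11 did not pass, with a median of -0.10. Both that rose modify the sugar chain. Ndst1, an N-deacetylase and sulfotransferase gene, had 43.5, 44.5 and 43.3 FPKM in siSetdb1 and 36.8, 31.8 and 33.8 FPKM in siNC (log2 fold change 0.35, limma adjusted p = 0.0198). Glce, the glucuronic acid epimerase gene, had 6.65, 6.55 and 6.24 FPKM in siSetdb1 and 4.06, 4.63 and 5.30 FPKM in siNC (log2 fold change 0.41, limma adjusted p = 0.0283). Neither passed without siNC replicate 2 or any 1 of the siSetdb1 libraries (adjusted p = 0.0595 to 0.0804 for Ndst1 and 0.0653 to 0.107 for Glce), with no filter, or with the block. Without siNC replicate 1, 4 genes of the list rose and 2 fell.

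Of 12 tested Golgi membrane and matrix genes, the setting in which GOLM1 resides, 1 rose, none fell and 11 did not pass, with a median of 0.19. Golga7, a palmitoyltransferase subunit gene, had 16.7, 17.1 and 16.0 FPKM in siSetdb1 and 13.3, 13.3 and 14.7 FPKM in siNC (log2 fold change 0.25, limma adjusted p = 0.0491). It did not pass without any 1 of the 6 libraries (adjusted p = 0.0529 to 0.16), with no filter or with the block, and 2 other genes rose without siNC replicate 1.

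Other markers of fetal liver and liver tumours gave 1 call among 8 tested. Spp1, the gene of the secreted phosphoprotein osteopontin, had 118, 109 and 118 FPKM in siSetdb1 and 174, 231 and 256 FPKM in siNC (log2 fold change -0.92, limma adjusted p = 0.00689). Afp, the fetal serum protein alpha-fetoprotein, had 1.77, 1.9 and 1.4 FPKM in siSetdb1 and 1.93, 1.71 and 1.56 FPKM in siNC, with overlapping groups (limma adjusted p = 0.897). The list median was -0.09, and 2 genes fell without siNC replicate 1. Regulators of fetal liver genes, which include the repressor genes Zhx2 and Zbtb20 of mouse liver, gave no call in limma among 9 tested, with 4 at an unadjusted p under 0.05 and a median of -0.21. Zhx2 had 7.23, 7.09 and 7.54 FPKM in siSetdb1 and 7.41, 7.17 and 6.09 FPKM in siNC, again with overlap. With limma-voom on recovered reads, and without siNC replicate 2, 1 gene of this list fell.

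**Figure D4:**
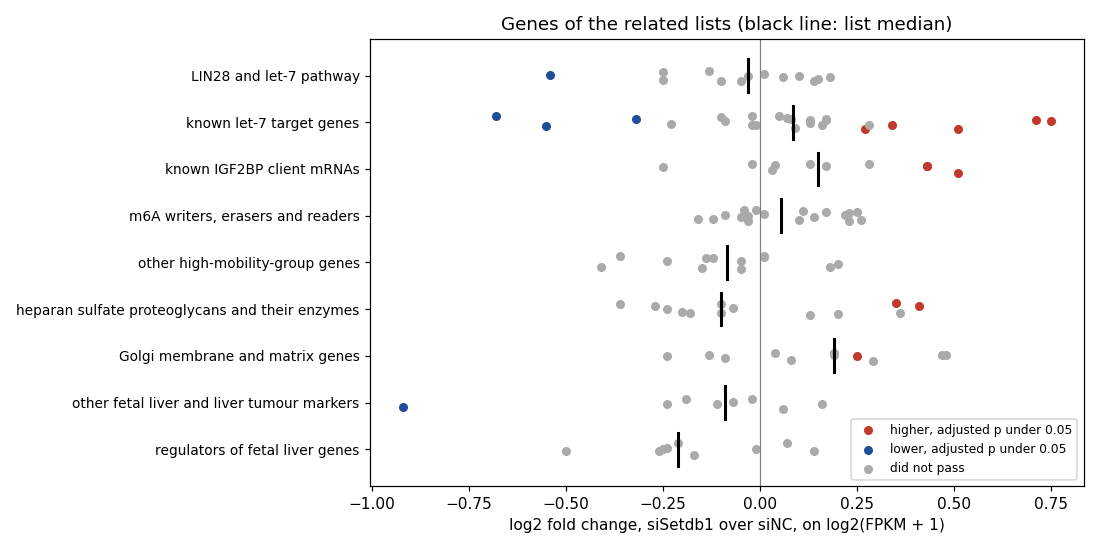
Log2 fold change, siSetdb1 over siNC (x axis, log scale), of each tested gene in the 9 related lists (rows). Red points rose and blue points fell at a limma adjusted p under 0.05, grey points did not pass, and black lines are list medians, which lie between -0.21 and 0.19.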

How the data were processed

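The labels describe oligo(dT)-selected RNA, random-hexamer cDNA and single-end sequencing on a BGISEQ-500. Per the submitters' processing notes, the build was mm10 and the tools included RSEM 1.2.12, HISAT2 2.0.4, DESeq2 1.4.5 and Bowtie2 2.2.5, whose roles are not given in the sources used here. The deposited table names no unit. Its values are FPKM made by the authors: times the summed exon length in GENCODE M21 (25372 genes matched) they are whole multiples of 1 step per library, within 0.01 reads in all libraries for 98.81% of these genes. The steps give the totals and reads quoted.

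Genes with at least 0.5 FPKM in 3 libraries (12846) were tested on log2(FPKM + 1) with limma 3.58.1 (R 4.3.3, trended robust variance, group as the only term), two-sided, Benjamini-Hochberg threshold 0.05, after a check on simulated data. The members and lists were chosen with earlier results of these data known. Text names all members, Setdb1 and up to 4 called genes with the smallest adjusted p per list. It also names a few pathway genes fixed by name and the 2 nearest patterns per called member. Ttr, Trf, Krt7, Krt8, Krt18, Alb, Apoa1, Apob, Hnf4a and Sox9 were named after their values were seen. So were Hmgn1, Hmgb2, Hmgb3, Zhx2, Zbtb20 and genes listed only as examples of a list. One gene that the rule names is not reported here. Genes whose exons overlap a member's were looked up in the annotation. No library was a copy of another: read counts within groups gave a chi-square of 4.68 to 24.0 per degree of freedom.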

Additional observations from a re-analysis of the deposited data

How the results depend on the processing

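Igf2bp2 fell in all 12 settings (log2 fold change -0.82 to -0.71) and Golm1 was higher in all 12 and passed in 10, with 0.36 to 0.44 when 1 library was left out. The 4 other tested members passed in none. Leaving out 1 library gave 683 to 2176 genes called, 355 to 1101 higher, 326 to 1075 lower, 1 to 2 members and 5 to 22 list genes, against 1945, 883, 1062, 2 and 15 with all libraries. With no filter on low values these were 890, 460 and 430 genes and 6 list genes. Over all tested genes the correlations of same-numbered deviations were -0.157, 0.167 and -0.172, and samples did not all correlate best with their own number. With 3 libraries per group these values cannot settle whether the numbers pair the libraries. With the number as a block the SE was lower for Ttr and Trf (0.16 and 0.11, against 0.41 and 0.22 in the main fit). It was slightly higher for Setdb1 and Actb (0.11 and 0.12, against 0.10 and 0.11). With the number as a replicate block 1015 genes (480 higher, 535 lower) and 9 list genes passed, and both members kept their calls. With limma-voom 22 list genes and 2299 genes passed. Median-ratio scaling gave 1020 higher and 907 lower, and so more higher than lower; the cause of these shifts was not tested. Lin28b had 18 to 52 reads per library, spread most widely within siNC.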
